A study of Rattus norvegicus with 3 samples.

Results

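Integrins, laminins and their nearest partners were examined in RNA from the acellular fraction of the rat spinal cord, with and without a contusion. The genes were taken by name from the deposited table: integrin alpha and beta chains, laminin alpha, beta and gamma chains, and 12 named genes that included fibronectin, vitronectin, the nidogens, perlecan, agrin, dystroglycan and the cytoplasmic proteins ILK, talin, FAK and paxillin. The rule found 27 genes among the 12758 symbols of the table. They comprised 14 receptors (13 integrin chains and dystroglycan), 7 ligands, 4 cytoplasmic adaptors or kinases, and ITGB1BP1 and ITGB3BP, which share the integrin name but are not integrin chains. A further 26 names that the rule allows, such as ITGAV, LAMA2 and AGRN, are not analysed here, and nothing is read from their lack of a value.

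The animals were Sprague Dawley females aged 3 months, and all had a laminectomy at T9. In the No-SCI group nothing more was done, and in the SCI group the exposed cord was contused. Tissue just rostral to the injury was taken at T8 after 24 h, digested with a cold active protease at 6°C and centrifuged, and the supernatant was sequenced after removal of ribosomal RNA. The labels give 2 No-SCI libraries and 1 SCI library, while the methods state 2 animals per condition. The deposited table holds 1 FPKM value per group for each gene, so no SD, n or test can be given, the table does not show how many reads lie behind each value, and a difference cannot be set against the spread between animals. A gene was called higher or lower when its SCI value differed from its No-SCI value by 2-fold or more, which is a description of size alone.

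Integrins are receptors made of 1 alpha and 1 beta chain that span the cell membrane. Outside the cell they bind matrix proteins such as laminin, fibronectin, vitronectin and collagen, and inside the cell their beta tails bind talin, which links them to actin, ILK, FAK and paxillin. Laminins are trimers of 1 alpha, 1 beta and 1 gamma chain that form the sheet of every basement membrane, with nidogen and perlecan as linkers, and dystroglycan is a second laminin receptor. In the cord these sheets surround blood vessels and line the surface under the meninges, whereas integrins of the beta2 class belong to microglia and blood leukocytes.

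Most of these genes differed little between the groups. Of the 27 genes, 2 were called higher after SCI (ITGB4 and PXN), beside 7.96% of all 12771 entries of the table, and 2 were called lower (ITGB8 and ITGB2), beside 12.1% of all entries. As shares of the 27 genes both counts are 7.41%, close to the share of all entries for the higher genes and under it for the lower ones. The log2 ratio, taken as SCI over No-SCI, had a median of −0.15 over the 27 genes and of −0.12 over all entries. Setting the median of all entries to 0 therefore adds 0.12 to every log2 ratio, and the median of the 27 genes is then −0.04. With a minimum of 1.3-fold, the size the study required, 7 genes were higher and 8 lower, beside 24.6% and 35.7% of all entries. At 1.5-fold 4 were higher and 4 lower (16.9% and 26.3% of all entries), and at 3-fold ITGB4 alone was higher and no gene lower (3.17% and 3.27% of all entries).

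The levels spanned a wide range. ITGB1, the beta chain shared by most integrins of tissue cells, was the highest of the integrin chains, with 77.8 FPKM in No-SCI against 64.0 FPKM after SCI. FN1, which encodes fibronectin, was the highest of the ligands. The lowest value after SCI was that of ITGA7, with 1.25 FPKM, and 12 of the 27 genes had a mean of both groups under 5 FPKM.

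**Figure D1:**
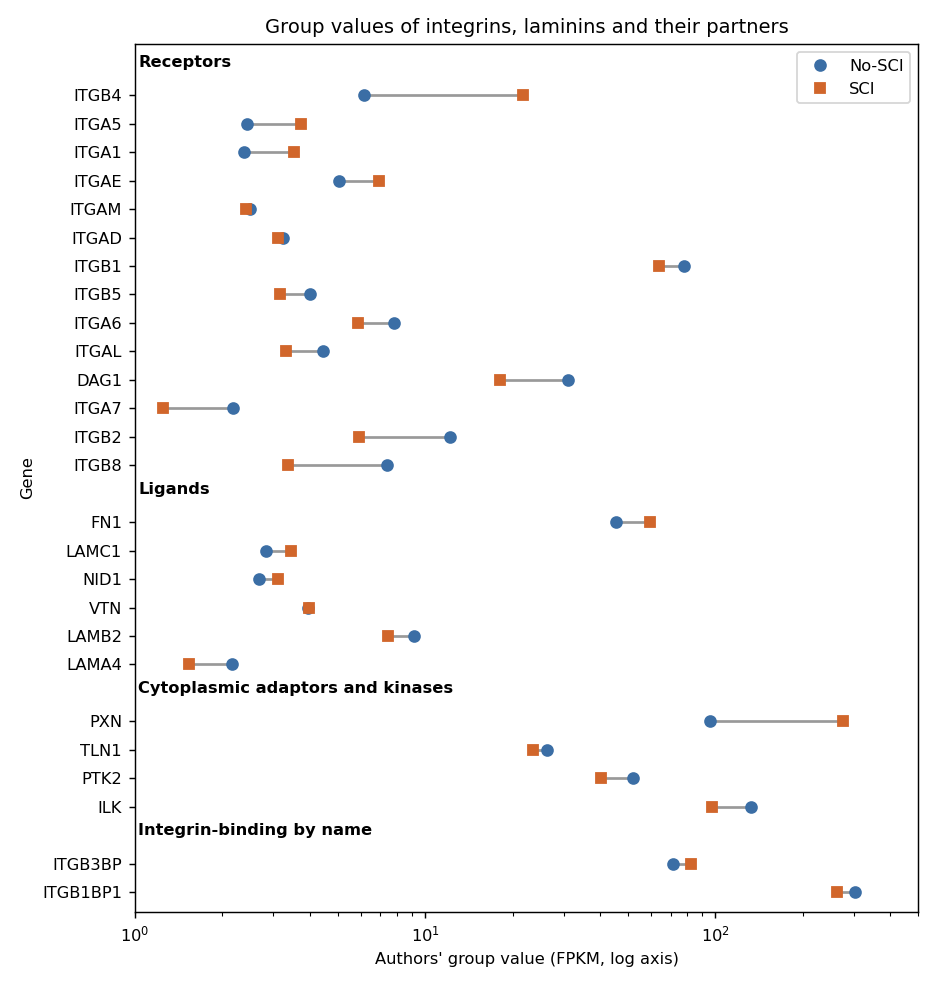
Authors' group values in FPKM (log axis) of 26 of the genes, by role and ordered by ratio within each role; circles are No-SCI, squares are SCI, and the grey line joins the 2 values of a gene. ITGB4 and PXN have the longest lines to the right, ITGB2 and ITGB8 the longest to the left among genes above 3 FPKM, and ITGB1 and FN1 stand above the other integrin chains and ligands.

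Low values need care, because the digits of the table have the form of an FPKM with 1 added. No entry lies below 1, and 87.7% of the values between 1 and 2 FPKM carry more than the 6 significant digits of a single Cuffdiff estimate, against 40.2% of those between 2 and 3 FPKM. The same step appears between 10 and 11 FPKM (80.9%) and between 11 and 12 FPKM (65.7%). An added 1 pulls the ratio of a low gene toward 0. With 1 subtracted from every value, 3 of the genes were called higher and 4 lower, LAMA4 (log2 ratio −1.12) and ITGA7 (−2.24) now among the latter, beside 10.4% and 16.2% of all 12716 entries with both values above 1. The values of 18 of the 27 genes carry more than 6 digits. An added 1 alone can bring the extra digit, as in ITGA7, whose values fit 1 plus a single estimate. The others may be sums or multiples of several estimates, and levels of different genes should be compared with that limit.

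Among the alpha chains that bind laminin, both had lower values after SCI. ITGA6, which pairs with beta1 or beta4, had 7.81 FPKM in No-SCI against 5.87 FPKM after SCI, a log2 ratio of −0.41. ITGA7, a laminin receptor best known from skeletal muscle, had 2.18 and 1.25 FPKM. Its log2 ratio was −0.80 as deposited and −2.24 with 1 subtracted, the largest effect of that choice among the 27 genes. The skeletal muscle list moved the same way: 10 of its 12 genes with values were called lower (83.3%) and none higher. The shares of all entries were 12.1% and 7.96%. The summed level of the list was 456 FPKM in No-SCI against 58.0 FPKM after SCI. MYH1 and MYH2 of that list, named after their values were seen, carry the same pair of values and cannot be told apart. The part of muscle RNA in the ITGA7 values was not tested.

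The alpha chains that bind collagen and fibronectin had higher values after SCI. ITGA1, a collagen receptor chain, had 2.39 FPKM in No-SCI against 3.54 FPKM after SCI, and ITGA5, the classical fibronectin receptor chain, had 2.43 and 3.74 FPKM. Their log2 ratios were 0.57 and 0.62, and 0.87 and 0.93 with 1 subtracted, in each case under 2-fold. FN1 itself had 45.5 FPKM in No-SCI against 59.3 FPKM after SCI, a log2 ratio of 0.38, so fibronectin and its receptor chain were both above their No-SCI values and both under the 2-fold minimum.

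The beta chains held 3 of the 4 calls. ITGB4, which pairs with alpha6 alone and anchors epithelial and Schwann cells to laminin, had 6.16 FPKM in No-SCI against 21.7 FPKM after SCI. That is 3.51-fold higher, a log2 ratio of 1.81 at percentile 97.8 of all entries. Its only partner ITGA6 was lower, and the log2 ratio of ITGB4 exceeded that of ITGA6 by 2.22. The ratio of ITGB4 to ITGA6 was 0.789 in No-SCI and 3.69 after SCI. ITGB4 is among the genes whose values carry more than 6 digits, so the level of that ratio is uncertain. ITGB1 had a log2 ratio of −0.28, between the lower and upper quartiles of all entries (−0.61 and 0.37).

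ITGB8, which pairs with alphav and activates latent TGF-beta, had 7.38 FPKM in No-SCI against 3.37 FPKM after SCI. This is 2.19-fold lower, a log2 ratio of −1.13, and both values have the digits of a single estimate. ITGB5, which also pairs with alphav, had 4.02 and 3.16 FPKM, a log2 ratio of −0.35. Astrocytes and oligodendrocytes are known to express ITGB8. Of their genes with values, 9 of 14 (64.3%) and 12 of 18 (66.7%) were called lower, beside 12.1% of all entries. No astrocyte gene and 1 oligodendrocyte gene (5.56%) were called higher, beside 7.96% of all entries. The median log2 ratios were −1.21 and −1.38. Of the 3 most abundant astrocyte genes, APOE and GLUL were nearly level (log2 ratios 0.18 and −0.06), and NDRG2 was called lower (−1.31). The summed level was 25214 FPKM in No-SCI against 21020 FPKM after SCI for the astrocyte list, and 54615 and 30906 FPKM for the oligodendrocyte list. In bulk RNA, fewer cells of a type and less RNA per cell cannot be told apart, and the part of these cells in the ITGB8 values was not tested.

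ITGB2, the common beta chain of leukocyte integrins, had 12.2 FPKM in No-SCI against 5.92 FPKM after SCI, which is 2.06-fold lower and a log2 ratio of −1.04. The call is narrow, since centring the median of all entries at 0 moves it to −0.92. Its alpha partners had smaller ratios. ITGAL, the alpha chain of LFA-1, had 4.46 and 3.32 FPKM, a log2 ratio of −0.42. ITGAM, the CD11b chain of a complement receptor, had 2.49 and 2.41 FPKM, and ITGAD had 3.24 and 3.11 FPKM, with log2 ratios of −0.05 and −0.06. These last 2 are not separate measurements: with 1 subtracted, ITGAM is 0.667 times ITGAD in both groups, and the values divide by 2 and by 3 into the same numbers, 0.747 FPKM in No-SCI against 0.704 FPKM after SCI. In the GRCr8 annotation of RefSeq the genes are near neighbours, with Itgax between them. The signs of both ratios flip under median centring. ITGAE, which pairs with beta7 on T cells, had 5.07 and 6.92 FPKM, a log2 ratio of 0.45.

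Markers of leukocytes did not all move with ITGB2. Of 15 microglia genes with values, 3 were called lower and 2 higher (20% and 13.3%), beside 12.1% and 7.96% of all entries. The summed level was 1317 FPKM in No-SCI against 1486 FPKM after SCI, and the median log2 ratio was −0.15. The 3 lower ones were CSF1R (47.4 and 21.1 FPKM), CX3CR1 (16.8 and 7.06 FPKM) and P2RY12 (21.5 and 10.8 FPKM). The 2 higher ones were C1QC (61.0 and 136 FPKM) and OLFML3 (9.45 and 30.8 FPKM), and these 5 genes were named after their values were seen. The most abundant of the list, AIF1, FCER1G and TYROBP, had log2 ratios of −0.20, 0.30 and 0.38. Of 11 genes of infiltrating myeloid cells with values, 7 were called higher (63.6%) and none lower, beside 7.96% and 12.1% of all entries. Without the 2-fold minimum, 8 had a higher and 3 a lower value after SCI. The 3 were CSF3R (17.1 and 8.97 FPKM), LCN2 (39.4 and 21.8 FPKM) and VCAN (6.02 and 4.97 FPKM), named after their values were seen. LYZ2 had 201 and 611 FPKM, CD14 18.1 and 60.9 FPKM, and S100A8 32.4 and 94.1 FPKM, while the list's summed level was 347 and 892 FPKM. The part of either cell type in the ITGB2 values was not tested.

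Dystroglycan stands apart from the integrins as a single precursor with 2 subunits. DAG1 had 31.0 FPKM in No-SCI against 18.2 FPKM after SCI, a log2 ratio of −0.77, which is under 2-fold. Of 22 genes of the dystroglycan complex and its glycosylation with values, 4 were called lower and 1 higher, with a median log2 ratio of −0.18. These are 18.2% and 4.55%, beside 12.1% and 7.96% of all entries. DTNA, which encodes alpha-dystrobrevin, had 104 FPKM in No-SCI against 26.7 FPKM after SCI (log2 ratio −1.96), and DMD, which encodes dystrophin, had 56.6 and 15.3 FPKM (−1.89). SGCA and SGCE, among the most abundant of the list, had log2 ratios of −0.27 and −0.21, while other sarcoglycan genes were among those called, in both directions. The median of the complex was near that of all entries (−0.12). Muscle also uses this complex. The median of the muscle list given above was −2.00, near the ratios of DTNA and DMD and below the median of the complex. The part of muscle RNA in these values was not tested.

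Among the ligands, the chains of laminin did not share a direction. LAMA4, the alpha chain of vascular laminin, had 2.16 FPKM in No-SCI against 1.53 FPKM after SCI (log2 ratio −0.49), and LAMB2 had 9.14 and 7.42 FPKM (−0.30). LAMC1, the gamma chain of most laminins, had 2.83 and 3.44 FPKM (0.28). NID1, which links laminin to collagen IV, had 2.67 FPKM in No-SCI against 3.12 FPKM after SCI (log2 ratio 0.22). VTN, which encodes vitronectin, was nearly level at 3.96 and 3.98 FPKM. No ligand reached 2-fold as deposited.

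When ligands and receptors were set side by side, the ligands had the higher ratios. Of 7 ligands, 5 had a higher value after SCI than in No-SCI, and the median log2 ratio was 0.22. Of 14 receptors, 4 had a higher value after SCI, and the median was −0.32, so the medians differed by 0.54. Against the median of all entries, 5 of 7 ligands and 6 of 14 receptors were above it. Both medians kept their sign after centring (0.34 and −0.20). With means in place of medians the difference was 0.25, from a ligand mean of 0.12 and a receptor mean of −0.13. The 2 groups of genes overlapped: the receptors ran from −1.13 to 1.81, on either side of every ligand, and genes are not replicates, so the difference has no test.

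**Figure D2:**
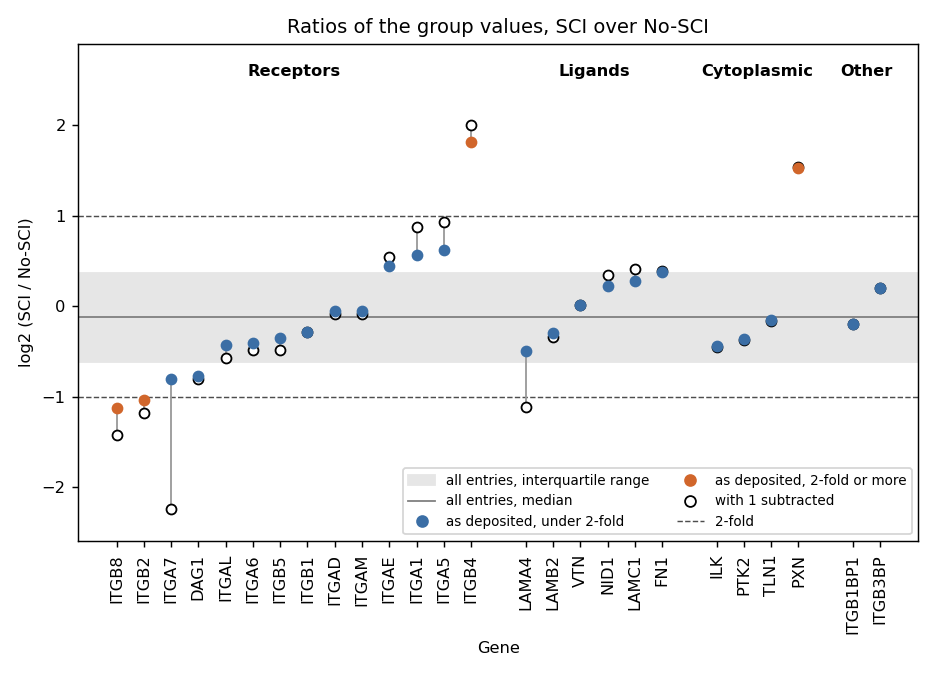
Log2 ratio of SCI to No-SCI for 26 of the genes, by role; filled points are the values as deposited (orange at 2-fold or more), open points have 1 subtracted from every value, the dashed lines mark 2-fold, and the grey band and line show the interquartile range and the median of all entries. Most filled points lie in the band, 4 lie past a dashed line, and the open points of ITGA7 and LAMA4 cross a line that their filled points do not.

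Of the cytoplasmic proteins, PXN alone was called. PXN encodes paxillin, a scaffold of focal adhesions, and had 95.4 FPKM in No-SCI against 276 FPKM after SCI. This is 2.89-fold higher, a log2 ratio of 1.53 at percentile 96.6 of all entries, and it was 1.54 with 1 subtracted. Like ITGB4 and ITGB2, PXN carries more than 6 digits. The other 3 cytoplasmic genes were under 2-fold and between the quartiles of all entries. ILK had 132 and 97.1 FPKM (log2 ratio −0.44), PTK2, which encodes FAK, had 52.0 and 40.4 FPKM (−0.37), and TLN1, which encodes talin-1, had 26.3 and 23.6 FPKM (−0.15). The log2 ratio of PXN exceeded that of PTK2 by 1.90 and that of ILK by 1.98. The median of these 4 genes was −0.26 and their mean 0.14, which differ in sign because of PXN.

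ITGB1BP1, a regulator of beta1 integrin tails, had 302 FPKM in No-SCI against 263 FPKM after SCI (log2 ratio −0.20). ITGB3BP, which encodes a kinetochore protein, had 71.4 and 82.3 FPKM (0.20). Leaving both out changed none of the counts of called genes.

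A wider list of integrin-linked adaptors and kinases had 47 genes with values. Of these, 4 were called higher and 5 lower, which is 8.51% and 10.6%, near the shares of all entries. The median log2 ratio was −0.12, and its sign flips to 0.0011 after centring. Higher values were found for LIMS2, a PINCH protein that binds ILK (14.3 and 48.4 FPKM), LPP, a zyxin relative (55.5 and 139 FPKM), and TES (10.7 and 24.4 FPKM). Lower values were found for KANK1, which binds talin (203 and 81.4 FPKM), and VCL, which encodes vinculin (37.9 and 17.1 FPKM). TNS3 (948 and 463 FPKM) and FERMT2, which encodes kindlin-2 (313 and 166 FPKM), were among the most abundant of the list.

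Of 25 membrane partners of integrins with values, 2 were called higher and 3 lower, which is 8% and 12%, close to the 7.96% and 12.1% of all entries. LGALS1, which encodes galectin-1, had 931 FPKM in No-SCI against 2024 FPKM after SCI, and PLAUR, the urokinase receptor, had 4.70 and 11 FPKM. VCAM1, the ligand of integrin alpha4 beta1, had 11.7 and 4.03 FPKM, and THY1 had 297 and 136 FPKM. The most abundant, LGALS3 with 3755 and 3253 FPKM, was under 2-fold.

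Of 24 other basement membrane and integrin-binding matrix genes with values, 6 were called higher and 1 lower. These are 25% and 4.17%, beside 7.96% and 12.1% of all entries, with a median log2 ratio of 0.35. CCN2 had 2.34 FPKM in No-SCI against 23.0 FPKM after SCI, SMOC2 had 1.48 and 12.8 FPKM, and PRELP, which anchors basement membranes to connective tissue, had 13.2 and 61.7 FPKM. EDIL3, a ligand of alphav integrins, was the gene called lower, with 53.4 and 13.1 FPKM. SPARC and SPP1, the most abundant of the list with 271 and 222 FPKM in No-SCI, had log2 ratios of −0.02 and 0.26.

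**Figure D3:**
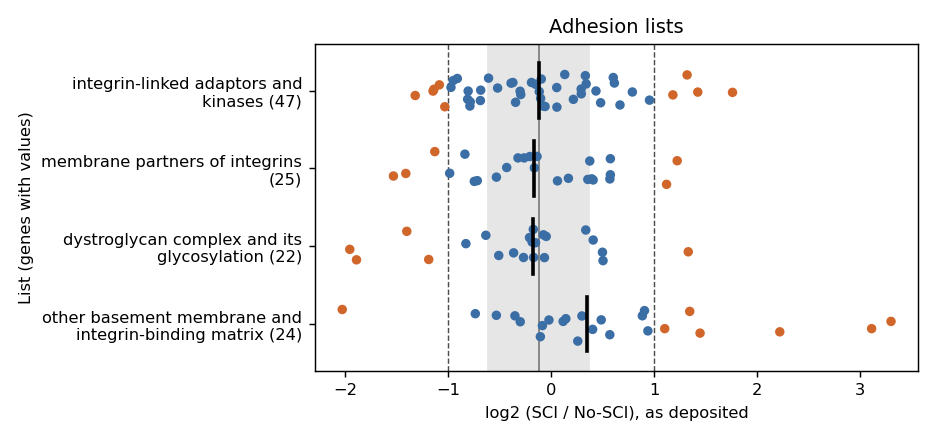
Log2 ratio of SCI to No-SCI, as deposited, for the genes with values of 4 adhesion lists (1 point per gene, orange at 2-fold or more, black bar for the list's median); the grey band and line are the interquartile range and the median of all entries, and the dashed lines mark 2-fold. The 3 upper lists centre near the line of all entries, and the matrix list has 6 points past the right dashed line and 1 past the left.

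Marker lists of cell types known to make basement membranes or carry ITGB4 were read beside these genes. Of 19 meningeal fibroblast genes with values, 16 were called higher (84.2%) and none lower, beside 7.96% and 12.1% of all entries. Their median log2 ratio was 2.31, with a summed level of 5169 FPKM in No-SCI against 7105 FPKM after SCI. MGP had 47.5 and 757 FPKM and CRABP2 17.3 and 382 FPKM, while the most abundant, APOD, had 4973 and 5159 FPKM. Of 11 Schwann cell genes with values, 4 were called higher and 1 lower (36.4% and 9.09%), with summed levels of 206 and 243 FPKM. In that list 1 gene has a No-SCI value of exactly 1. PMP2 and PMP22, the most abundant of the Schwann cell list, had log2 ratios of −0.00096 and 0.60. Of 15 endothelial genes with values, 6 were called higher and 1 lower (40% and 6.67%), with summed levels of 97.1 and 162 FPKM. Of 15 mural cell genes, 1 was called in each direction (6.67%, under the shares of all entries), with summed levels of 980 and 1380 FPKM.

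The meningeal list had mostly higher values after SCI, as had ITGB4, PXN and most of the matrix genes. The Schwann cell list was mixed, with 7 genes above and 4 below their No-SCI values and a median log2 ratio of 0.60. In the endothelial list 10 genes were above and 5 below, with a median of 0.20. The infiltrating myeloid list given above had a median of 1.06. The part of these cell types in the values of ITGB4, PXN and the matrix genes was not tested. Of 17 neuronal genes with values, 7 were called lower (41.2%) and none higher, beside 12.1% and 7.96% of all entries. Their median log2 ratio was −0.69, with summed levels of 2422 and 2034 FPKM. Of 9 platelet genes, 4 were called lower and 1 higher (44.4% and 11.1%), with summed levels of 183 and 57.8 FPKM. The labelled tissue shows in the high levels of MOBP and CNP, which are oligodendrocyte genes, and several defining markers of cord cells, GFAP, AQP4, MBP and SNAP25 among them, are not analysed here.

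**Figure D4:**
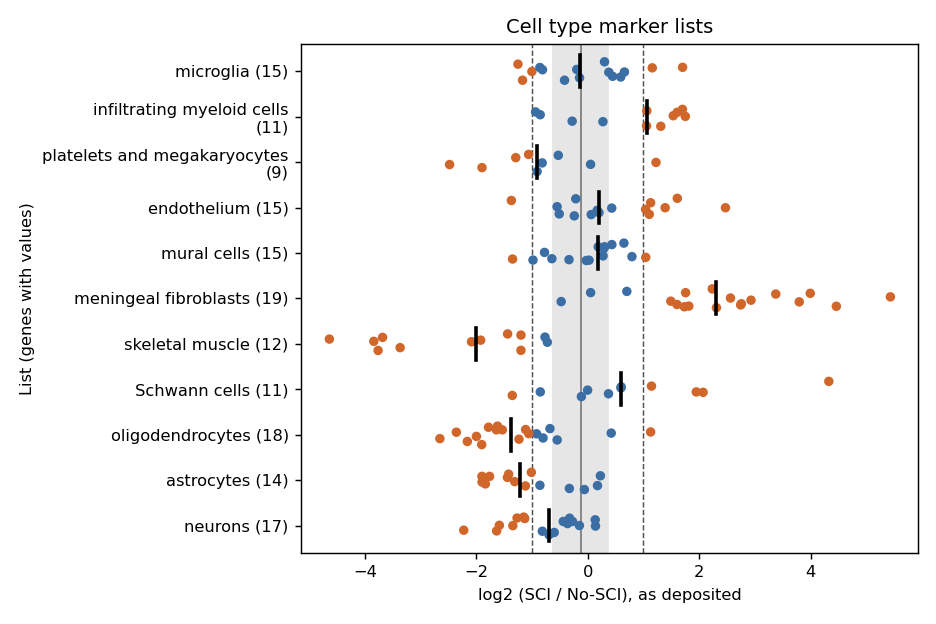
Log2 ratio of SCI to No-SCI, as deposited, for the genes with values of 11 cell type marker lists (1 point per gene, orange at 2-fold or more, black bar for the list's median); the grey band and line are the interquartile range and the median of all entries, and the dashed lines mark 2-fold. The bars of meningeal fibroblasts and infiltrating myeloid cells lie right of the 2-fold line, and those of skeletal muscle, oligodendrocytes and astrocytes lie left of it.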

How the data were processed

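RNA of the acellular fraction was sequenced in 2 No-SCI libraries and 1 SCI library. Per the labels and methods, the authors reduced every library to the read number of the smallest, mapped to rn6 with STAR 2.5.4b and ran Cuffdiff (cufflinks 1.3.0) with upper quartile scaling. Each deposited FPKM is a value for a whole group, 1 per group and entry, so neither a replicate spread nor the reads behind a value can be derived from the table. The table also holds the authors' own comparison of the groups (p-values, q-values, fold changes and a significance mark), which was not used. Of 2 measurement columns, 0 were left without a group.

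The 27 genes, the lists and the 2-fold minimum were chosen with earlier results of these data known. Log2 ratios of SCI to No-SCI were computed without a pseudocount. For 13 symbols listed more than once, none of them among the 27 genes, the one of higher mean was kept. All 27 symbols matched RefSeq (GRCr8), used for names and neighbours alone. The alternatives were other pseudocounts, scalings, filters and folds. Every one of the 27 genes could be named, but some genes that enter the counts and medians are not reported here. From each adhesion list the 3 most abundant genes and up to 3 called in each direction with a mean of at least 5 FPKM were named, and from each marker list the 3 most abundant; exceptions are stated. The calculations were tested on simulated data. Python 3.11.15, numpy 2.4.6, pandas 2.3.3 and matplotlib 3.10.9 were used.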

Additional observations from a re-analysis of the deposited data

How the results depend on the processing

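The higher calls of ITGB4 and PXN held under each pseudocount and scaling tried, and both genes passed the filter on mean FPKM, but neither is among the genes with at most 6 digits. The counts moved with the settings as follows. The number called lower, 2 as deposited, was 0 with a pseudocount of 1 FPKM, 4 with 1 subtracted from every value, and 1 under median centring, equal totals or equal upper quartiles, under each of which ITGB2 fell short of 2-fold. At 1.3-fold 7 genes were higher and 8 lower, at 1.5-fold 4 and 4, and at 3-fold 1 and 0. The median log2 ratio of the 27 genes was −0.28 over the 15 genes with a mean of at least 5 FPKM, −0.037 after centring, −0.051 with equal upper quartiles, and −0.018 as a mean. The ligand median exceeded the receptor median by 0.73 with 1 subtracted and by 0.25 as means. Centring and equal upper quartiles reversed ITGAD (0.059 and 0.044) and ITGAM (0.067 and 0.052).

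Chosen after the values were seen, a restriction to the 9 genes with at most 6 digits (ITGB8 but not ITGB4, PXN or ITGB2) gave 0 higher, 1 lower and a median of −0.28, and leaving out the leukocyte chains gave 1 lower. Counting ITGAM and ITGAD once changed no count. Of the 162 single-gene ratios recomputed under another pseudocount or scaling or with 1 subtracted, 150 kept both direction and side of 2-fold. Leaving out a library was not possible, because the table holds group values. No paired analysis was possible because the groups share 1 replicate number and the columns carry none.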
